A study of Mus musculus with 9 samples.

Results

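The cytosolic ribosomal protein genes were examined in mouse retinas that had received an antibody against complement component 5 (C5), a plasma protein whose cleavage yields the inflammatory fragment C5a. A gene belonged to the set when its symbol was Rpl or Rps with a number and at most 1 closing letter a, x, y or l, or was Rplp0, Rplp1, Rplp2 or Rpsa, and when the array held a probe set that named it alone. Of 22180 genes with a probe set of their own, 64 met this rule, 40 of the large subunit and 24 of the small subunit. They were covered by 104 such probe sets, and the probe set with the highest mean signal stood for each gene. All 64 symbols matched RefSeq, which lists 62 as protein coding and 2, Rpl6l and Rps4l, as pseudogenes. RefSeq holds 83 symbols of this form, and the 19 others, among them Rpl10 and Rps27a, had no probe set of their own here. 12 of these 19 were named only on probe sets shared with other genes.

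The retinas came from male C57BL/6 mice (C57BL/6J in the methods) that were 6 weeks old when purchased, with eyes not treated with the laser. One group received 10 μg of anti-C5 antibody in 1 μL of PBS in the vitreous cavity, a second group received 1 μg of the same antibody, and the controls received PBS according to the sample labels but an IgG1 isotype antibody according to the methods. Which of these the control arrays stand for is not settled. If the controls were given PBS, antibody protein as such and binding of C5 cannot be told apart at either dose. The methods give the isotype antibody at 1 μg in 1 μL. At 10 μg, antibody protein and binding of C5 therefore cannot be told apart with isotype controls either. Retinas were collected 7 days after injection, each array carried RNA of 4 retinas from 4 mice pooled, and each group had 3 arrays. The study calls the pools of a group biological replicates. The sources do not say whether both eyes of a mouse could enter different pools. The comparison was made to look for toxicity of the antibody in the normal retina.

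The cytosolic ribosome consists of a small subunit, which reads the mRNA, and a large subunit, which joins the amino acids. Each protein is needed in about equal numbers, and the genes are known to be controlled together, mainly at the level of translation. Their mRNAs typically begin with a cytosine and a run of pyrimidines, the 5′ terminal oligopyrimidine (TOP) tract, which ties their translation to mTOR signalling. In the retina, photoreceptors renew their outer segments continually and so make protein at a high rate.

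The TOP tract is the sequence feature the set is known for, so the start sites of some members that stand out below are shown. Each window holds 10 bases before and 20 bases from the RefSeq transcript start (build GRCm38.p6), 5′ to 3′ on the strand of the gene, with the tract in capitals where a C followed by at least 4 pyrimidines began within 5 bases of the start. Rps18 and Rpl35 are described below among the members with higher signal at 10 μg, and Rps6 as one that differed little. Rps9 and Rpl39 carried a tract a few bases upstream of the RefSeq start. Rpsa and Rplp0 had none that began within 5 bases of the start.
Rps18 (chr17:33955646-33955675, minus strand): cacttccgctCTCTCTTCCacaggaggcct
Rpl35 (chr2:39005112-39005141, minus strand): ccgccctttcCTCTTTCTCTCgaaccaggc
Rps6 (chr4:86857348-86857377, minus strand): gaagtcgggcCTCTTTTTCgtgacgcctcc
Rps9 (chr7:3704031-3704060, plus strand): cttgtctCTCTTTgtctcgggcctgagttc
Rpl39 (chrX:37085203-37085232, minus strand): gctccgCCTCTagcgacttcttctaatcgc
Rpsa (chr9:120127756-120127785, plus strand): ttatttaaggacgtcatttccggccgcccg
Rplp0 (chr5:115559457-115559486, plus strand): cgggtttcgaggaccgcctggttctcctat
Of the 49 members with an entry in the RefSeq promoter table, 11 (22.4%) had the tract exactly at a listed start, against 3.01% of all 27025 genes of that table. Within 5 bases of the start it was found in 21 of the 49 members (42.9%), against 21.2% of all genes. A match is a description of these letters, and a missing match says only that the listed start does not open with them.

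The signal values were log2 intensities after robust multi-array averaging (RMA), so a difference of 1 is a doubling. They ran between 1.35 and 13.74 in the whole table, array medians lay between 5.88 and 6.04, and the arrays correlated with each other at 0.971 to 0.991 over probe sets. Rod markers had a mean log2 signal of 11.73 to 11.79 on all 9 arrays, in the upper part of that range. The precision is limited by 3 arrays per group. The 95% confidence interval of a member's log2 difference had a median half-width of 0.25.

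Ribosomal protein genes had higher signal in retinas given 10 μg of antibody than in control retinas, by a small amount. In pooled tissue a different share of a cell type and a different amount of RNA per cell cannot be told apart. The mean log2 signal over the 40 large subunit genes was 8.22, 8.21 and 8.21 on the 10 μg arrays and 8.05 on each of the 3 control arrays. Over the 24 small subunit genes it was 7.53, 7.53 and 7.45 on the 10 μg arrays, against 7.32, 7.28 and 7.27 on the control arrays. The 2 groups of arrays did not overlap in either subunit. The same mean over all 25341 named probe sets was 6.38, 6.38 and 6.36 on the 10 μg arrays, against 6.34, 6.33 and 6.32 on the control arrays, a narrower gap in the same direction.

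**Figure D1:**
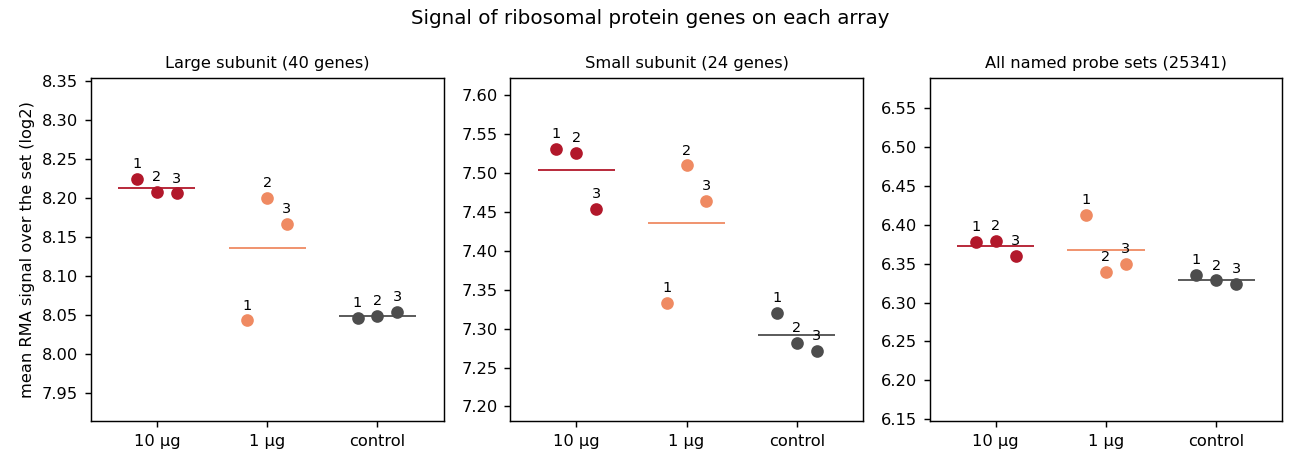
Mean RMA signal (log2, vertical axis) on each array over the large subunit genes, the small subunit genes and all named probe sets, by group. Each point is 1 array with its replicate number, the line is the group mean, and all panels span the same height. The 10 μg arrays lie above the control arrays in both subunits, and replicate 1 at 1 μg lies apart from the other 2 arrays at that dose.

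The median log2 difference, 10 μg minus control, was 0.16 in the large subunit (range -0.44 to 0.51) and 0.21 in the small subunit (range -0.22 to 0.70), against 0.02 over all named probe sets. Of the 64 genes, 52 had a difference above 0, against 55.7% of all named probe sets. None reached an adjusted p under 0.05 in limma with Benjamini-Hochberg adjustment over all named probe sets, where 0.0197% of probe sets were called. The lowest adjusted p of a member was 0.0575, for Rps19. At an unadjusted p under 0.05, 30 members (46.9%) were higher and 2 (3.12%) were lower, against 11.4% of all named probe sets higher and 5.99% lower. The 10 μg and control arrays did not overlap, with 10 μg higher, in 31 members (48.4%), against 14.3% of all named probe sets. They did not overlap, with 10 μg lower, in 2 members, Rpl39 and Rpl32l, against 8.51% of all. Both subunits shared the shift, with 18 of 40 large and 12 of 24 small subunit genes higher at an unadjusted p under 0.05.

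No member differed by over 2-fold at 10 μg, while 1.13% of all named probe sets did so at an unadjusted p under 0.05. The whole confidence interval of the 10 μg difference lay within 2-fold in either direction for 63 of the 64 members, the exception being Rps18. The call at an adjusted p under 0.05 depended on the setting. When dim probe sets were left out of the fit, or when the variance was allowed to follow the intensity, 7 members were called, among them Rps19, Rpsa, Rps9, Rpl8, Rpl35 and Rpl13. Without replicate 1 at 1 μg, whose residuals enter the shared variance, 4 were called (Rpl35, Rpl8, Rplp0 and Rpsa). Without replicate 2 at 1 μg 2 were called (Rpl8 and Rpsa), and without replicate 3 at 10 μg 1 was called (Rps19). The fit without dim probe sets held 49 of the 64 members and 12671 named probe sets. Calls over the probe sets fitted rose as well, to 451 of 12671 without dim probe sets and 494 of 25341 with the variance setting. With those arrays left out in turn they numbered 178, 249 and 328 of 25341. The 1 of 64 members called without replicate 3 at 10 μg was therefore near the share of all named probe sets.

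**Figure D2:**
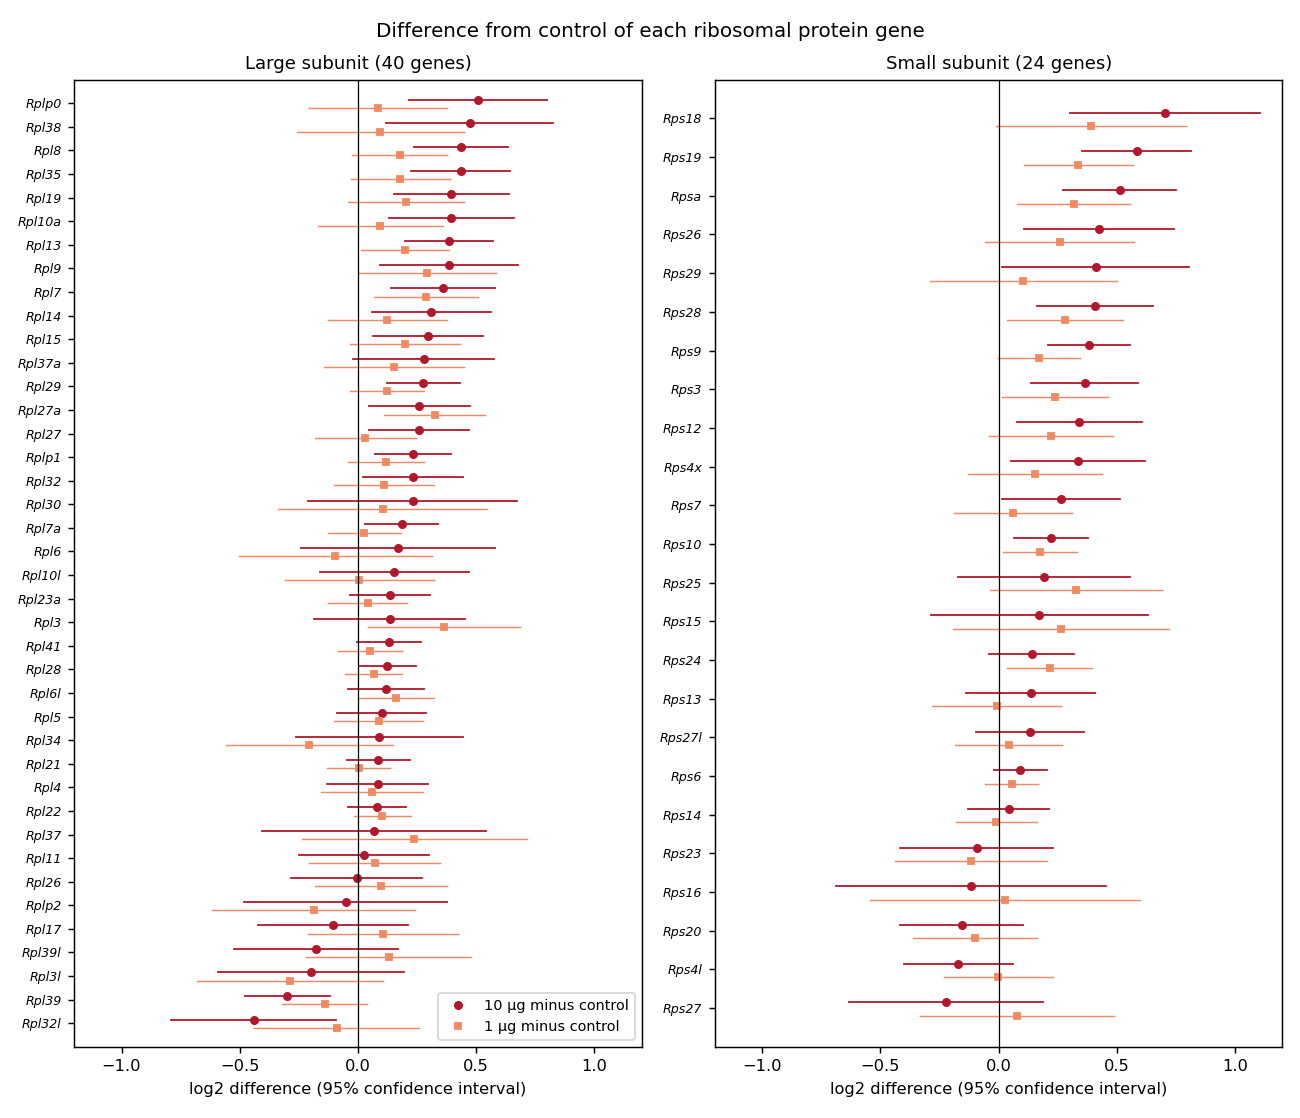
Log2 difference from control (horizontal axis) of every large and small subunit gene, with circles for 10 μg and squares for 1 μg, each with its 95% confidence interval. Both doses share the same 3 control arrays. At 10 μg 52 of 64 circles lie right of 0, with Rps18 highest and Rpl32l lowest.

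Among small subunit proteins, Rps19, which is needed to mature the RNA of the small subunit and is mutated in human Diamond-Blackfan anaemia, had log2 signals of 8.51, 8.39 and 8.80 at 10 μg, against 8.06, 7.91 and 7.99 in controls. All 3 treated pools lay above all control pools, and the difference was 0.58 ± 0.10 (SE, 3 arrays per group, adjusted p = 0.0575). Another probe set of Rps19 gave 0.02, and further probe sets of Rpsa, Rpl13 and Rps26 are given below. Rpsa, the laminin receptor homologue on the head of the small subunit, had 8.68, 8.66 and 8.50 at 10 μg, against 8.11, 8.10 and 8.10 in controls. The control pools were almost equal, all treated pools were higher, and the difference was 0.51 ± 0.10 (SE, adjusted p = 0.0789). Rps9, at the mRNA entry of the small subunit, had 7.98, 7.95 and 7.92 at 10 μg, against 7.56, 7.68 and 7.46 in controls. Here the treated pools were the more even ones and did not overlap with the controls (0.38 ± 0.08, SE, adjusted p = 0.0774).

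Rps3, another protein of the mRNA entry channel, had 8.84, 8.98 and 9.04 at 10 μg, against 8.55, 8.72 and 8.49 in controls (0.36 ± 0.10, SE, adjusted p = 0.128). The pools did not overlap. Rps18 of the subunit head had the widest gap of all 64 members, with 6.81, 7.04 and 6.48 at 10 μg, against 6.44, 5.89 and 5.89 in controls. Its lowest treated pool and its highest control pool nearly met, and its difference of 0.70 had a standard error of 0.18 (adjusted p = 0.110). Rps28 had 8.89, 8.95 and 8.74 at 10 μg, against 8.38, 8.56 and 8.42 in controls, again without overlap (0.41 ± 0.11, SE, adjusted p = 0.122).

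Rps6, the substrate of the S6 kinases that act below mTOR, differed by little. Its log2 signals were 12.81, 12.84 and 12.89 at 10 μg, against 12.76, 12.76 and 12.75 in controls, and the difference was 0.09 with a confidence interval of -0.02 to 0.20. All 10 μg pools and all 1 μg pools nevertheless lay above the 3 control pools, which were almost equal. Rps14, whose loss of 1 copy marks human 5q- syndrome, had 6.07, 5.93 and 5.85 at 10 μg, against 5.92, 6.00 and 5.81 in controls. The groups overlapped, with a difference of 0.04 and an interval of -0.13 to 0.21.

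Among large subunit proteins, Rpl8, which lies next to the peptidyl transferase centre, had 9.22, 9.16 and 9.15 at 10 μg, against 8.71, 8.78 and 8.73 in controls. The pools of each group were close together and far from the other group (0.44 ± 0.09, SE, adjusted p = 0.0789). Rpl35, at the exit of the peptide tunnel, had 10.81, 10.71 and 10.77 at 10 μg, against 10.37, 10.35 and 10.26 in controls (0.44 ± 0.09, SE, adjusted p = 0.083). Rpl13 had 7.79, 7.60 and 7.75 at 10 μg, against 7.26, 7.49 and 7.24 in controls (0.39 ± 0.08, SE, adjusted p = 0.083). Neither gene overlapped between the groups.

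Another 21 members had higher signal at 10 μg at an unadjusted p under 0.05. In the large subunit they were Rpl7, Rpl7a, Rpl9, Rpl10a, Rpl14, Rpl15, Rpl19, Rpl27, Rpl27a, Rpl28, Rpl29, Rpl32, Rpl38, Rplp0 and Rplp1, and in the small subunit Rps4x, Rps7, Rps10, Rps12, Rps26 and Rps29. Of these, Rpl29, Rpl38 and Rps26 are given by array and were chosen after their values were seen. Rpl29, a basic protein on the surface of the large subunit, had 11.50, 11.58 and 11.62 at 10 μg, against 11.32, 11.24 and 11.31 in controls. Rpl38, known in mice for its part in translating Hox mRNAs, had 10.48, 10.32 and 10.26 at 10 μg, against 10.03, 9.82 and 9.79 in controls. Rps26 had 9.88, 9.70 and 9.98 at 10 μg, against 9.45, 9.45 and 9.39 in controls. None of these 3 overlapped between the groups. The remaining 32 members, which did not pass in either direction, had differences between -0.22 (Rps27) and 0.28 (Rpl37a), 22 above 0 and 10 below. Their least precise values were those of Rps16 and Rpl37, with standard errors of 0.25 and 0.21, so a moderate difference in these genes lies inside their intervals.

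The stalk proteins recruit the elongation factors to the large subunit. Rplp0, the base of the stalk, had 7.95, 7.99 and 7.97 at 10 μg, against 7.35, 7.55 and 7.49 in controls (0.51 ± 0.13, SE, adjusted p = 0.111). Rplp1 had 10.26, 10.33 and 10.21 at 10 μg, against 10.14, 9.94 and 10.02 in controls (0.23 ± 0.07, SE, adjusted p = 0.155). Both were free of overlap. The probe set for Rplp2 alone, which lay under the median signal of named probe sets, gave 5.59, 5.97 and 5.40 at 10 μg, against 5.59, 5.43 and 6.10 in controls, with a difference of -0.05 ± 0.19 (SE) that has no clear sign. A brighter probe set that names Rplp2 together with Snora52 gave 9.75, 9.91 and 9.82 at 10 μg, against 9.53, 9.36 and 9.52 in controls, without overlap (0.36 ± 0.08, SE, adjusted p = 0.102). Rpl5 and Rpl11, which with the 5S RNA can bind Mdm2 and so stabilise p53, differed by 0.10 (interval -0.09 to 0.29) and 0.02 (interval -0.25 to 0.30). Their probe sets also lay under the median signal of named probe sets. A brighter one that names Rpl5 together with Rpl5-ps2 differed by 0.18 ± 0.09 at 10 μg and 0.32 ± 0.09 at 1 μg (SE).

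**Figure D3:**
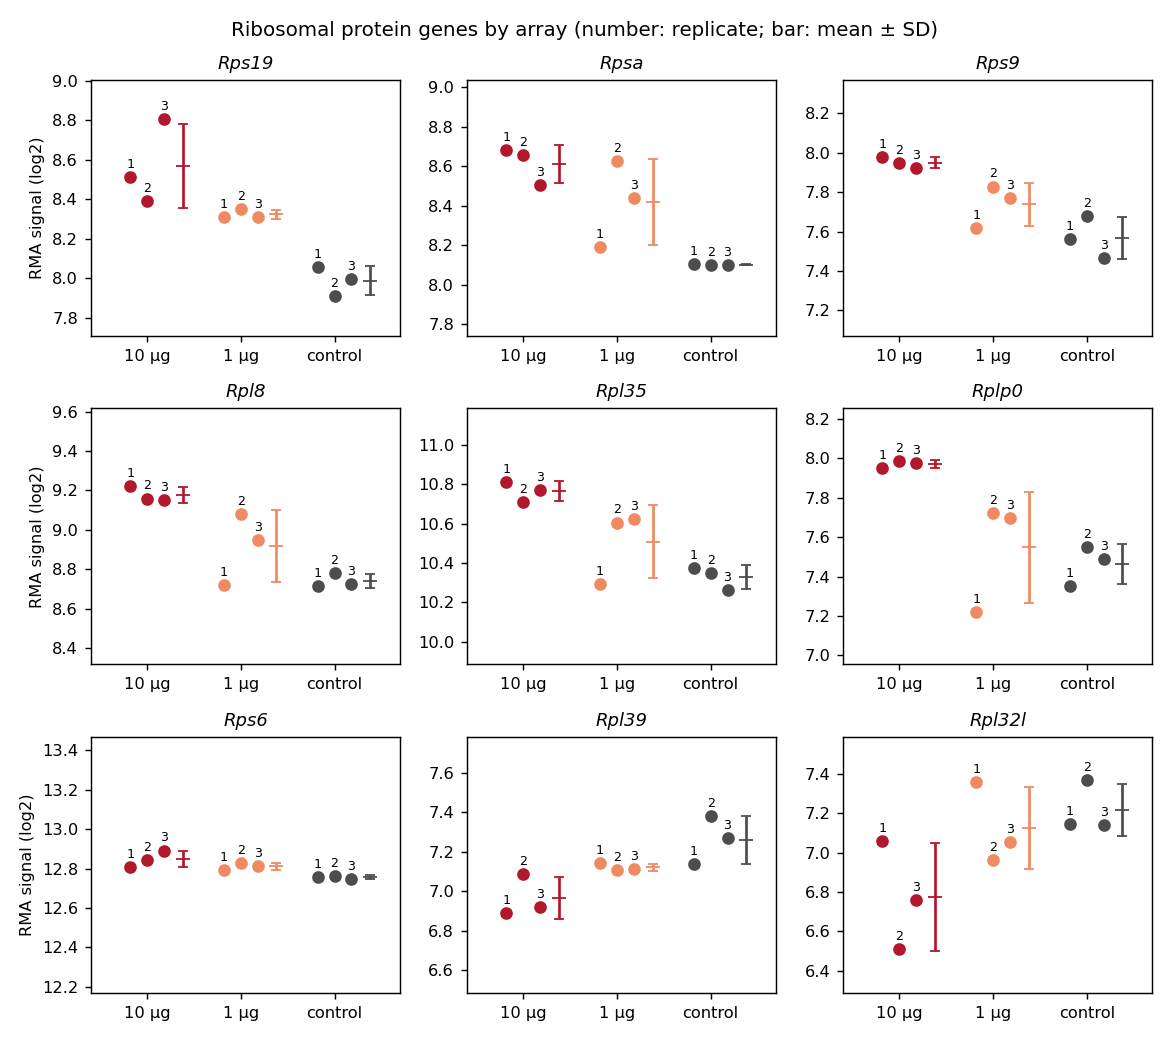
RMA signal (log2, vertical axis) of 9 ribosomal protein genes on each array, by group, with replicate numbers at the points and the group mean ± SD beside them. All panels span the same height. Rps19, Rpsa, Rps9, Rpl8, Rpl35, Rplp0 and Rps6 show the 10 μg arrays above all control arrays, Rps6 with a mean difference of only 0.09, and Rpl39 and Rpl32l show the 10 μg arrays below the controls.

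A few members lay lower at 10 μg. Rpl39, a short protein that lines the exit tunnel, had 6.89, 7.09 and 6.92 at 10 μg, against 7.14, 7.38 and 7.27 in controls (-0.30 ± 0.08, SE, adjusted p = 0.123). All treated pools lay below all control pools. Rpl32l, a copy of Rpl32, had 7.06, 6.51 and 6.76 at 10 μg, against 7.14, 7.37 and 7.14 in controls (-0.44 ± 0.15, SE, adjusted p = 0.197). Its treated pools were spread over a wider range than the controls. Rps27 and Rps20 differed by -0.22 ± 0.18 and -0.16 ± 0.11 (SE), and their groups overlapped. Probe sets shared with other genes went the other way. The brighter one that names Rps27 together with Rps27rt gave 7.44, 7.59 and 7.68 at 10 μg, against 7.30, 7.05 and 7.19 in controls, higher without overlap (0.39 ± 0.08, SE, adjusted p = 0.0838). The one that names Rpl39 together with Gm11694 and Gm15067 differed by 0.11 ± 0.07 (SE), so the direction of Rpl39 and of Rps27 is uncertain.

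Copies of ribosomal protein genes are given apart. The 7 members that RefSeq lists as pseudogenes or that carry the closing l of a paralog (Rpl3l, Rpl6l, Rpl10l, Rpl32l, Rpl39l, Rps4l and Rps27l) had a median difference of -0.17 at 10 μg, with 3 above 0 (42.9%) and none higher at an unadjusted p under 0.05. Of all named probe sets 55.7% were above 0 and 11.4% were higher, so among 7 genes these counts lie near those shares. Rpl3l, Rpl10l and Rpl39l lay under the median signal of named probe sets. The other 57 members had a median of 0.23, with 49 above 0 (86.0%) and 30 higher at an unadjusted p under 0.05 (52.6%). The split was made after the values were seen and the difference between the 2 sets was not tested.

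In the parent and paralog pairs, Rpl3 differed by 0.13 ± 0.14 and its muscle paralog Rpl3l by -0.20 ± 0.17 (SE) at 10 μg. Rpl3l had 4.98, 4.86 and 4.74 at 10 μg, against 5.40, 4.81 and 4.97 in controls. The 10 skeletal muscle markers had their highest mean log2 signal on the same control array, replicate 1, at 8.52, against 5.75 to 6.73 on the 10 μg arrays and 5.64 to 6.57 on the other 2 control arrays, and their part in the Rpl3l value was not tested. Rpl39l, best known from testis, differed by -0.18 ± 0.15 beside -0.30 ± 0.08 for Rpl39, and Rps4l by -0.17 ± 0.10 beside 0.33 ± 0.12 for Rps4x (SE). Rps27l, a p53 target in human cells, differed by 0.13 ± 0.10 beside -0.22 ± 0.18 for the probe set of Rps27 alone (SE). The testis paralog Rpl10l differed by 0.15 ± 0.14 (SE) and had no parent in the set. Rpl22, whose probe set gave nearly the same value on all arrays, differed by 0.08 (interval -0.04 to 0.20).

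**Figure D4:**
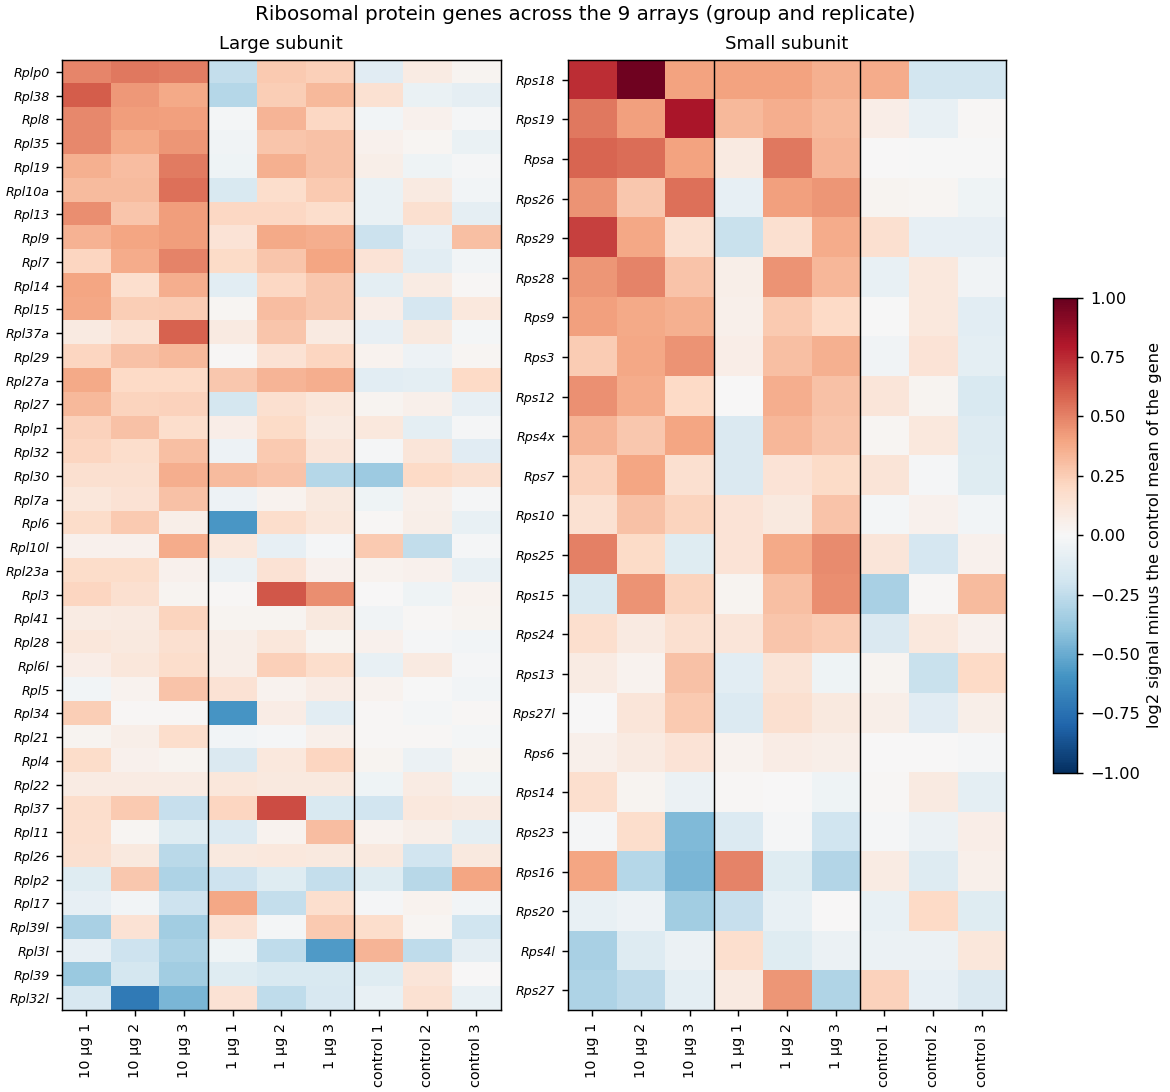
Log2 signal of each member on each array minus the control mean of that gene, with arrays in columns by group and replicate and genes in rows, ordered by the 10 μg difference. Red is above and blue below the control mean. Most rows are red in the 3 columns of 10 μg and in replicates 2 and 3 at 1 μg, while replicate 1 at 1 μg is pale or blue in many rows.

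The 1 μg group was split between its arrays. The median deviation from the control mean was 0.01, 0.17 and 0.12 on replicates 1 to 3 at 1 μg for the large subunit, and 0.04, 0.27 and 0.26 for the small subunit. On the 10 μg arrays it was 0.18, 0.17 and 0.21 for the large and 0.24, 0.27 and 0.21 for the small subunit. On the control arrays it lay between -0.01 and 0.02 for the large and between -0.03 and 0.02 for the small subunit. Replicates 2 and 3 at 1 μg were thus near the 10 μg arrays and replicate 1 near the controls. Replicate 1 was below both other 1 μg arrays in 40 of 64 members (62.5%), against 25.4% of all named probe sets. Replicates 2 and 3 were both above every control array in 35 members (54.7%), against 21.2% of all. Replicate 1 had the highest array median of the series (6.04) and the highest mean over all named probe sets (6.41), so its lower ribosomal protein signal did not go with a lower signal as a whole. Other lists described below shared it. On replicates 1 to 3 at 1 μg the median deviation was 0.00, 0.13 and 0.11 for TOP mRNA genes. It was 0.05, 0.13 and 0.10 for mitochondrial ribosomal proteins and 0.05, 0.08 and 0.11 for biogenesis factors. RNA polymerase I genes (0.07, 0.11 and 0.12) and p53 targets (0.00, 0.04 and 0.06) were also lowest on replicate 1. Growth signalling genes had 0.02, 0.08 and 0.02.

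Over all 3 arrays, the 1 μg minus control difference had a median of 0.10 in the large and 0.16 in the small subunit, against 0.04 over all named probe sets. It was above 0 in 53 of 64 members, against 62.8% of all named probe sets. No member had an adjusted p under 0.05 (lowest 0.506), nor did any named probe set (0%). At an unadjusted p under 0.05, 11 members (17.2%) were higher and none lower, against 7.2% and 1.84% of all named probe sets. The groups did not overlap, with 1 μg higher, in 12 members (18.8%), against 12.5% of all, and with 1 μg lower in none, against 2.45% of all. Of named probe sets at or above the median signal, 76.0% were above 0 at 1 μg. There 10.6% were higher at an unadjusted p under 0.05, and 19.8% were higher without overlap. The 49 members of that brightness had 87.8%, 22.4% and 22.4%. In lists described below, 61 of 71 mitochondrial ribosomal proteins and 32 of 35 biogenesis factors were also above 0 at 1 μg. No member differed by over 2-fold, against 0.679% of all named probe sets at an unadjusted p under 0.05. Without replicate 1 at 1 μg the medians were 0.15 and 0.25, and 24 members were higher at an unadjusted p under 0.05. Without replicate 2 that count was 5, and without replicate 3 it was 3. The share of all named probe sets in these refits is not given here, so the counts have no background beside them.

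The members with the smallest p at 1 μg were partly those of the higher dose. Rps19 had 8.31, 8.35 and 8.31 at 1 μg, against 8.06, 7.91 and 7.99 in controls, all 3 pools above every control (0.34 ± 0.10, SE, adjusted p = 0.506). Rpsa had 8.19, 8.63 and 8.44 at 1 μg, against 8.11, 8.10 and 8.10 in controls, also without overlap (0.32 ± 0.10, SE, adjusted p = 0.520). Both doses are set against the same control arrays, so the 2 comparisons are not independent. Rpl27a had 6.59, 6.66 and 6.69 at 1 μg, against 6.22, 6.23 and 6.52 in controls (0.32 ± 0.09, SE). Rpl7, Rpl3 and Rps24 differed by 0.29, 0.36 and 0.22.

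For Rpl3 the array split was plain, with 8.41, 9.03 and 8.87 at 1 μg, against 8.41, 8.36 and 8.44 in controls. Rplp0 showed it as well, with 7.22, 7.72 and 7.70 at 1 μg, against 7.35, 7.55 and 7.49 in controls. Of the members that lay lower at 1 μg, Rpl39, Rpl3l and Rpl34 differed by -0.14, -0.29 and -0.21. Rps23, Rps20 and Rps14 differed by -0.12, -0.10 and -0.01. None of these 6 had an unadjusted p under 0.05. Without replicate 1 at 1 μg the value of Rpl34 was -0.013, and without control replicate 2 that of Rps20 was -0.0025. With 1 array left out, Rpl3l ran between -0.41 and -0.12. A brighter probe set that names Rpl34 together with Rpl34-ps1 went the other way at 1 μg (0.12 ± 0.07, SE). So did the one that names Rpl39 together with Gm11694 and Gm15067 (0.11 ± 0.07, SE), so the direction of Rpl34 and of Rpl39 is uncertain.

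Between the doses, 10 μg minus 1 μg, the median was 0.10 in the large and 0.11 in the small subunit, against -0.01 over all named probe sets. It was above 0 in 46 of 64 members, against 46.9% of all named probe sets, and no member or other probe set was called at an adjusted p under 0.05 (lowest of a member 0.416, 0% of all called). At an unadjusted p under 0.05, 10 members (15.6%) were higher at 10 μg and 1 (Rpl32l) lower, against 3.93% and 6.45% of all named probe sets. The doses did not overlap, with 10 μg higher, in 11 members (17.2%), against 4.48% of all, and with 10 μg lower in 2 (Rpl22 and Rpl39), against 9.44% of all. No member differed by over 2-fold, against 0.0158% of all named probe sets at an unadjusted p under 0.05. Without replicate 1 at 1 μg the medians were 0.06 and 0.03 and 3 members were higher. Without replicate 1 or replicate 3 at 10 μg the count was 5 or 6. For these refits too the share of all named probe sets is not given here.

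Rplp0 had the widest gap between the doses, with 7.95, 7.99 and 7.97 at 10 μg, against 7.22, 7.72 and 7.70 at 1 μg (0.42 ± 0.13, SE, adjusted p = 0.416). Rpl8 differed by 0.26 ± 0.09, Rps19 by 0.25 ± 0.10 and Rps9 by 0.21 ± 0.08 (SE), and in all 3 genes every 10 μg pool lay above every 1 μg pool. At the other end, Rpl5 and Rpl4 differed by 0.01 (interval -0.18 to 0.20) and 0.02 (interval -0.19 to 0.24). Rps23 differed by 0.02 (interval -0.30 to 0.35) and Rps15 by -0.09 (interval -0.55 to 0.37), so for these 2 a moderate difference in either direction lies inside the interval.

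Members were also read by brightness. The 49 members at or above the median signal of all named probe sets (6.22) had a median difference of 0.26 at 10 μg, with 43 above 0 and 29 higher at an unadjusted p under 0.05. The 15 dimmer members had a median of 0.04, with 9 above 0 and 1 higher. Named probe sets at or above the median signal had a median of 0.03, with 14.1% higher at an unadjusted p under 0.05. Members with a TOP tract at a RefSeq start, such as Rps18 and Rpl35 in the windows above, had a median of 0.22 (11 genes), and those with a promoter entry but no tract at the start, such as Rpsa and Rplp0, had 0.18 (38 genes). Rpl32l, the lowest member, and Rps27 also carried the tract at the start.

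Ribosomal protein genes have many processed copies in the genome, and probe sets can pick up their transcripts. 24 members had more than 1 probe set, and 33 further probe sets with values of their own gave a median 10 μg difference of 0.08, with 22 above 0 (66.7%, against 55.7% of all named probe sets), 8 higher (24.2%, against 11.4%) and 1 lower (3.03%, against 5.99%) at an unadjusted p under 0.05. In 9 genes the probe sets differed in sign at 10 μg (Rpl3, Rpl7a, Rpl9, Rpl27, Rpl35, Rplp0, Rps18, Rps24 and Rps28). For Rpl3 the brightest probe set gave 0.13, while another gave 7.37, 7.04 and 6.89 at 10 μg, against 7.70, 7.66 and 7.68 in controls, a difference of -0.58 ± 0.14 (SE, adjusted p = 0.105). The second probe set of Rplp0 gave -0.16 ± 0.13 beside 0.51, and the lowest of the 3 for Rps18 gave -0.01 beside 0.70. The lowest probe set value was -0.12 for Rpl7a (0.18 on the brightest), -0.06 for Rpl9 (0.39), and -0.01 for Rpl27 (0.26), Rpl35 (0.44) and Rps24 (0.14), and it was -0.0025 for Rps28 (0.41). The values of these genes are therefore uncertain. Without a change of sign, the lowest probe set value was also small for Rps19 (0.02, against 0.58 on the brightest) and Rpsa (0.08, against 0.51). The same held for Rpl13 (0.02, against 0.39) and Rps26 (0.04, against 0.42). The size of the difference in Rps19, Rpsa, Rpl13 and Rps26 therefore depended on the probe set. Rpl7, Rpl19, Rpl29 and Rplp1 had lowest values of 0.21, 0.19, 0.28 and 0.18. For Rps9 both probe sets were higher, by 0.38 and 0.46, and for Rps12 all 8 were higher, by 0.34 to 0.43. 6 of those 8 held the same values.

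The probe sets that name a ribosomal protein gene together with another gene were not members, and 57 of them were read as a second set of probes from the same arrays. Their median difference at 10 μg was 0.14, with 45 above 0 (78.9%, against 55.7% of all named probe sets), 20 higher (35.1%, against 11.4%) and none lower (against 5.99%) at an unadjusted p under 0.05. The highest named Rps3 together with the small nucleolar RNA Snord15b, with 7.79, 8.33 and 7.74 at 10 μg, against 6.87, 7.00 and 6.94 in controls, a difference of 1.02. Which of the named genes gives such a signal cannot be told apart. The lowest named Rpl10 and Gm5621.

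Other genes of the pathway came from lists chosen by function, and no gene of any list had an adjusted p under 0.05 at 10 μg. Of 4 ribosomal proteins outside the naming rule, Fau, the fusion from which the protein eS30 is cleaved, was higher at an unadjusted p under 0.05 (0.35 ± 0.07, SE, adjusted p = 0.083), and Rpl7l1 differed by 0.13. Of 17 translation factors and other genes with TOP mRNAs, 5 were higher (29.4%) and 1 lower (5.88%) at an unadjusted p under 0.05, against 11.4% and 5.99% of all named probe sets, with a median of 0.09. Among them were Eif3k, a subunit of the initiation factor eIF3 (0.39 ± 0.08, SE), and Eef1b2, an exchange factor of elongation (0.32 ± 0.09, SE). The 71 mitochondrial ribosomal proteins, a separate ribosome made for the respiratory chain, had a median of 0.07 with 13 higher (18.3%) and 1 lower (1.41%), against the same 11.4% and 5.99%, led by Mrpl52 (0.50) and Mrps31 (0.28).

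Genes that build ribosomes had median differences between -0.02 and 0.07. Of 35 biogenesis factors, 6 were higher (17.1%) and 2 lower (5.71%) at an unadjusted p under 0.05 at 10 μg, near the 11.4% and 5.99% of all named probe sets, and the median was 0.03. The 2 with the smallest p were Eif6, which keeps new large subunits from joining too early (0.45 ± 0.11, SE, adjusted p = 0.102), and Nhp2, a protein of pseudouridylation snoRNPs (0.38 ± 0.12, SE). Of 11 genes of RNA polymerase I and its factors, which transcribe ribosomal RNA, 2 were higher (18.2%, against 11.4% of all), Polr1c (0.25) and Polr1d (0.20), with a median of 0.07. The 13 genes of growth signalling had a median of -0.02, with Rheb, the activator of mTOR, at 0.25 and the S6 kinase gene Rps6kb2 at -0.25. None of 10 p53 targets passed an unadjusted p of 0.05, with Sesn2 at 0.21 and Bbc3 at 0.25.

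**Figure D5:**
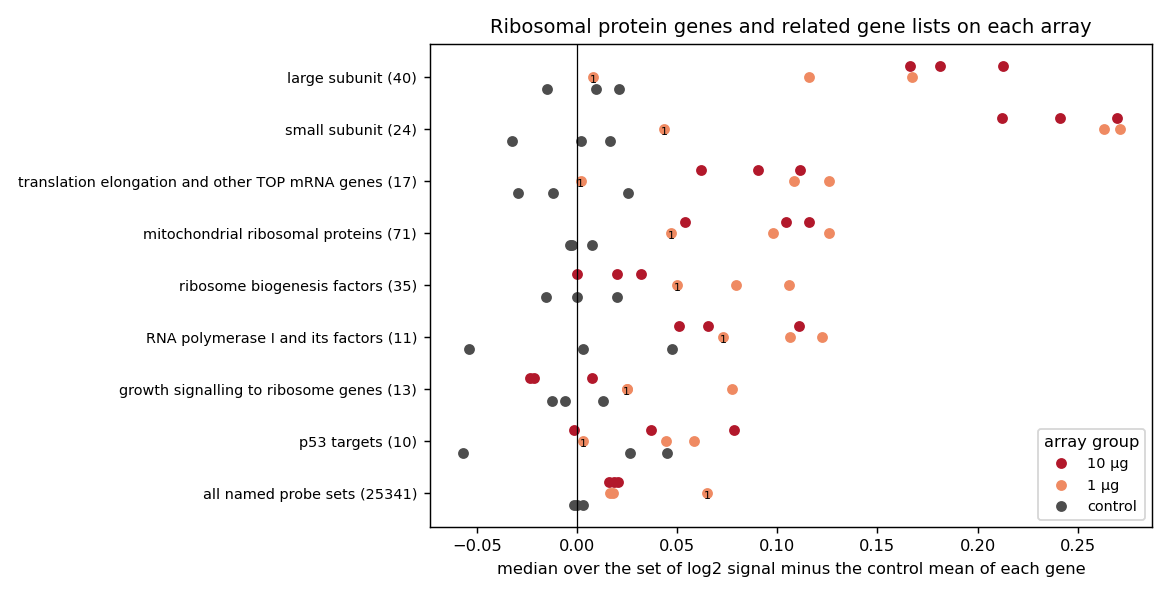
Median over each gene list of the log2 signal minus the control mean of each gene (horizontal axis), 1 point per array, coloured by group, with the number of genes in brackets and replicate 1 at 1 μg marked. Of the 9 sets plotted, both ribosomal subunits lie furthest right at 10 μg. Replicate 1 at 1 μg lies left of the other 1 μg arrays in both subunits, as it does in several other gene lists. Over all named probe sets it lies right of them.

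Markers of retinal cell types were read on the same arrays. The 6 ganglion cell markers resembled the ribosomal protein genes on the treated arrays, while the order of the control arrays depended on the measure. Their median deviation from the control mean was 0.22, 0.35 and 0.33 on the 10 μg arrays and 0.07, 0.28 and 0.35 on the 1 μg arrays, against -0.02, -0.05 and 0.10 on the control arrays. Control replicate 3 was the highest control for these markers, above replicate 1 at 1 μg. By median deviation it was the lowest control in the ribosomal subunits, at -0.01 in the large and -0.03 in the small subunit. By mean log2 signal it was the highest control in the large subunit (8.053, against 8.046 and 8.048) and the lowest in the small subunit. 4 of the 6 ganglion cell markers (66.7%, against 11.4% of all named probe sets) were higher at 10 μg at an unadjusted p under 0.05. Their mean log2 signal was 9.04 to 9.10 at 10 μg, against 8.73 to 8.89 in controls. The 6 microglia and macrophage markers had a mean of 6.53 to 6.74 at 10 μg, against 6.33 to 6.38 in controls, with 2 of 6 higher. The 6 Müller glia markers had 10.05 to 10.25 at 10 μg, against 9.99 to 10.08 in controls, with 2 of 6 higher. The 5 measured amacrine and horizontal cell markers had median deviations of 0.07 to 0.16 at 10 μg and 0.12 to 0.20 at 1 μg, against -0.10 to 0.03 in controls, with none of 5 higher at 10 μg and 3 of 5 higher at 1 μg at an unadjusted p under 0.05. The 6 cone markers had a mean log2 signal of 9.10 to 9.23 at 10 μg, against 9.15 to 9.21 in controls, with 1 of 6 lower at 10 μg. None of the 6 measured rod markers differed at an unadjusted p under 0.05, and 2 of the 4 measured bipolar markers were lower at 10 μg. All marker counts given here are at that threshold. Of all named probe sets, 11.4% were higher and 5.99% lower at 10 μg, and 7.2% were higher at 1 μg.

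Markers of tissue from outside the neural retina varied from pool to pool. The 8 lens markers had a mean log2 signal of 6.93 to 8.27 at 10 μg and 6.23 to 8.18 at 1 μg, against 6.41 to 9.38 in controls. The 6 pigment epithelium markers had 7.38 to 8.19 at 10 μg, against 7.32 to 7.96 in controls. The part of ganglion cell, amacrine and horizontal cell, microglial, glial, lens, muscle or pigment epithelium RNA in the ribosomal protein signal was not tested.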

How the data were processed

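RNA of 9 retina pools was hybridised to Affymetrix gene arrays, 1 colour and 1 pool per array. Per the labels, the authors summarised and normalized the probes by RMA in Affymetrix Expression Console 1.1, and the deposited values are log2 signals per probe set. A genome build is not given in the sources used here. Of 41345 probe sets, 25341 were named by the platform annotation (23521 by 1 gene, 1820 by several) and 16004 were not. All named probe sets were fitted with limma 3.58.1 in R 4.3.3 (group as the term, 9 arrays, empirical Bayes) and p-values were adjusted by Benjamini-Hochberg over them. The fit was tested on simulated data. Medians and counts over members are descriptions without a test. Members and lists were chosen with earlier results of these data known. Named genes were those with an adjusted p under 0.05, the 3 higher and 3 lower of smallest p in each subunit and dose, the 2 of largest and 2 of smallest p between doses in each subunit, paralogs, genes of set roles, genes whose probe sets differed in sign, and the 2 of smallest p in each list. Other genes were named after their values were seen. Alternatives were a replicate block, centring, cyclic loess, filters, variance settings, probe set choice and leaving out each array.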

Additional observations from a re-analysis of the deposited data

How the results depend on the processing

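The 10 μg minus control comparison was the one whose calls moved most. At an adjusted p under 0.05, 5 named probe sets were called. The count was 0 with a replicate block, 2 with unnamed probe sets included, 1 with array weights and 1 with identical probe sets counted once. It was 120 with cyclic loess, 288 with each array centred on its median and 494 with an intensity trend in the variance. Without dim probe sets it was 451 of the 12671 left in the fit. Leaving out 1 array at a time gave 0 to 328, the highest without replicate 3 at 10 μg, with 178 and 249 without replicates 1 and 2 at 1 μg. The number of ribosomal protein genes called was 0, and became 1 with centring (Rps19) and 7 with the intensity trend. It was 7 of the 49 left in the fit without dim probe sets, and 0 to 4 with 1 array left out. With centring, 1 of 64 members stood beside 288 of 25341 named probe sets, a similar share. At 1 μg, 0 probe sets were called, and 0 to 2 with 1 array left out (2 without control replicate 3). The median of the large subunit genes at 10 μg (0.16) was 0.20 with centring, 0.23 without dim probe sets and 0.23 without paralogs and pseudogenes. That of the small subunit genes (0.21) was 0.25, 0.30 and 0.24 under the same settings and 0.19 to 0.27 with 1 array left out. The cause of these shifts was not tested. Members higher at an unadjusted p under 0.05 at 1 μg (11) numbered 5 with centring, 4 with cyclic loess, 24 with array weights and 3 to 24 with 1 array left out. Between the doses (10) they numbered 3 with array weights and 5 with only the 2 groups fitted. Shares of all named probe sets under these settings are not given here, so a change in the members cannot be told from a change in all probe sets.

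Whether the replicate numbers pair the arrays was not settled. Residual correlations were -0.20 to 0.13 between same-numbered arrays and -0.18 to 0.32 between the others. These ranges overlap, and 3 arrays per group are too few to decide. The replicate block called 0 members. It left every median as it was, which the balanced design fixes in advance and which is no sign of robustness. Some genes with differences near 0 turned sign. Averaging the probe sets of a gene gave -0.19 for Rpl3 at 10 μg and -0.050 for Rpl4 between the doses, and array weights gave -0.028 for Rpl4. With 1 array left out, the 10 μg difference ran from -0.048 to 0.095 for Rpl11, -0.21 to 0.14 for Rplp2, -0.017 to 0.094 for Rps14 and -0.23 to 0.081 for Rps23, the 1 μg difference from -0.060 to 0.034 for Rps14, and the difference between doses from -0.076 to 0.10 for Rpl4, -0.080 to 0.075 for Rpl5, -0.23 to 0.071 for Rps15 and -0.11 to 0.20 for Rps23. Of the other single-gene results under an alternative, 1046 kept their direction and their side of the threshold and 20 kept their direction and passed it. 3 arrays per group limit the precision.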
